A study of Mus musculus with 12 samples.

Results

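The comparison described here is that of palmitate with C3a against palmitate alone in islets of the mouse pancreas kept in culture, small bodies of endocrine tissue made up mostly of beta cells, which secrete insulin. Its members are 6 of the 12 libraries of the study, 3 that the labels give as palmitate plus C3a and 3 that they give as palmitate, and each library with C3a was set against the palmitate library of the same number and date tag. Islets came from wild-type male mice aged 10 to 12 weeks and were cultured in lots of about 120. The other 6 libraries, 3 of vehicle and 3 of vehicle with C3a, served as the like comparison without palmitate. The dose of palmitate and of C3a, the culture time, the strain and the number of mice behind a library are not stated in the labels. Every p-value therefore measures the spread between these libraries, which may be technical.

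C3a is the small peptide cut from complement component C3 when the complement cascade is active. It binds the G protein-coupled receptor C3ar1, which signals through G proteins to calcium and kinase pathways and has been described on beta cells. Palmitate is a saturated fatty acid used in culture to put islets under lipid stress, with activation of the unfolded protein response and the integrated stress response and, in time, loss of beta cells. Dusp26, a dual-specificity phosphatase, has been linked to C3a and to beta cell identity in published work. The question was therefore what C3a does to the transcripts of islets that are under this stress.

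Each library was messenger RNA sequencing of whole islets. The libraries numbered 1 came from sequencing batch 1 and held 24497451 and 25935048 counts over genes in the palmitate groups, and those numbered 2 and 3 came from batch 2 and held 35634200 to 49972741. In these 6 libraries Ins2 took 8.34% to 9.25% of the counts, Ins1 3.21% to 5.02%, Gcg 2.40% to 3.77% and Iapp 1.99% to 2.48%, so the hormones that define islets were present throughout. Replicate number was the largest source of spread: across 10954 genes with a level of at least 5 CPM (counts scaled to library size) it took 61.3% of the sum of squares, palmitate 23.2%, C3a 1.83%, the interaction of both 1.56% and the residual 12.1%. In that order the terms had 2, 1, 1, 1 and 6 degrees of freedom. Per degree of freedom the shares of C3a and of the interaction were below that of the residual. Mafa, a beta cell transcription factor, stood at 62.0 and 76.2 CPM in the palmitate libraries numbered 1 and at 629 to 787 CPM in those numbered 2 and 3.

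The palmitate with C3a library numbered 3 stood apart in the transcripts of connective tissue. The collagen-binding proteoglycan Dcn was at 6.52, 2.43 and 3.54 CPM in palmitate and at 3.40, 3.02 and 57.8 CPM in palmitate with C3a. Lum, a related proteoglycan, was at 4.74, 0.972 and 0.932 CPM and then at 0.665, 1.52 and 44.7 CPM. Of 15 fibroblast and pericyte markers, 13 were highest of the 6 palmitate libraries in that library and 9 were highest of all 12, and none was at 0 in all 6. Of 16 macrophage markers the numbers were 9 and 8. The summed level of the fibroblast and pericyte list was 1117, 358 and 438 CPM in palmitate and 357, 434 and 2062 CPM in palmitate with C3a. That of the macrophage list was 433, 329 and 331 CPM against 309, 352 and 571 CPM. A higher level of such a transcript in whole islets can come from more cells of the type or from more of it per cell, which bulk RNA cannot tell apart. The macrophage list had a fitted median log2 fold change with C3a of 0.09 with 12 of 16 above 0, and of -0.16 with 2 of 16 above 0 without that library. The palmitate library numbered 1 had the highest sum of its group for both lists. Without it instead, the macrophage median was 0.24 with 15 of 16 above 0. Lists of connective tissue and complement genes, C3ar1 and C5ar1 are given with and without the palmitate with C3a library numbered 3.

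No gene passed the test for a C3a effect in palmitate. Of 15794 genes tested with edgeR's quasi-likelihood method, 0 had an adjusted p under 0.05 (0.0%), and the smallest adjusted p was 0.941. An unadjusted p under 0.05 was found for 568 genes (3.60%), 323 higher and 245 lower with C3a. DESeq2 (350 unadjusted) and limma-voom (496 unadjusted) each called 1 gene, the predicted gene Gm21985, which is described after the gene groups. The same test for C3a in vehicle called 0 genes (0.0%, 511 at an unadjusted p under 0.05, 3.24%) and that for the difference between the C3a effects called 0 (0.0%, 332 unadjusted, 2.10%). In the same fit palmitate against vehicle called 4612 genes (29.2%), 2398 higher (15.2%) and 2214 lower (14.0%), and 39.5% of genes had an unadjusted p under 0.05. That comparison shares the palmitate libraries with the C3a comparison.

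**Figure D1:**
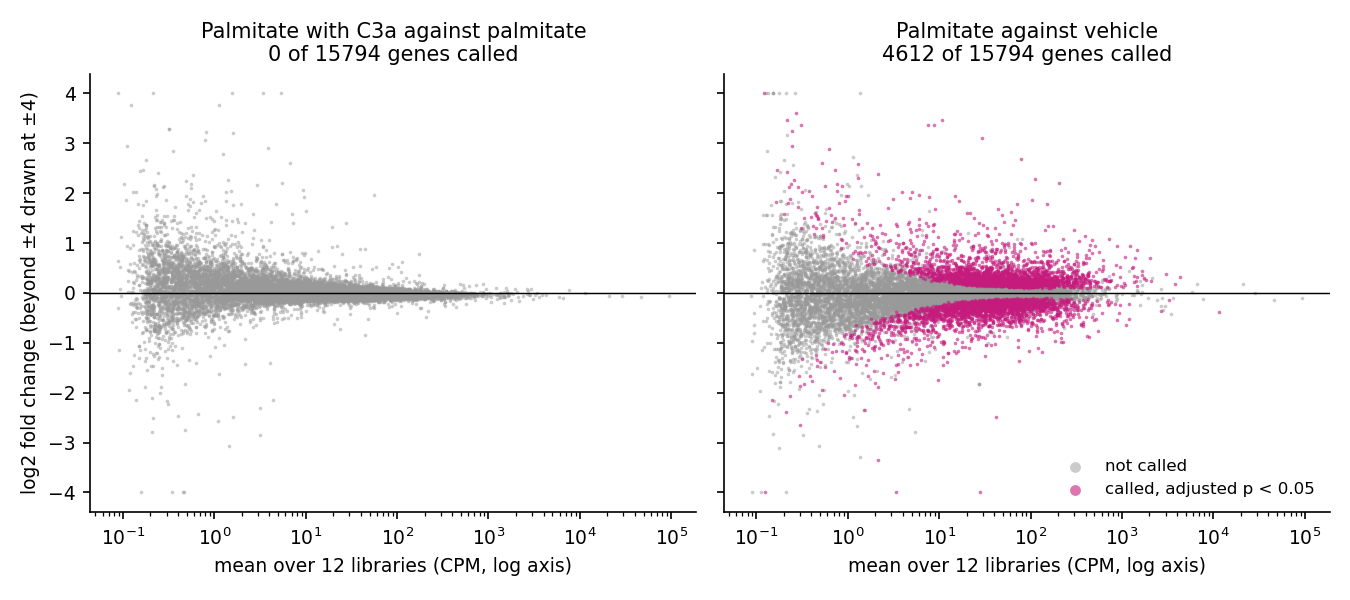
Log2 fold change (y axis; points beyond 4 in either direction are drawn at 4) against the mean level over 12 libraries (x axis, CPM, log scale) for each of 15794 genes, for C3a in palmitate (left) and for palmitate against vehicle (right), with called genes in colour. The left panel has 0 called genes and the right 4612, and both use the same palmitate libraries.

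The interval of each gene gives the range of differences between these groups of libraries that its estimate allows. The intervals are per gene and unadjusted, and rest on a spread between libraries that may be technical. They are of whole islets and set no bound on a change within a single cell type. Among the 10954 genes with at least 5 CPM, the median absolute log2 fold change with C3a in palmitate was 0.05 and the median half-width of the 95% interval was 0.14. For 10302 of these genes (94.1%) the whole interval lay within 0.5 log2 units of no change, and for 10816 (98.7%) it lay within 1 unit, which is a 2-fold change. Estimates beyond 0.5 in either direction were found for 56 of them with C3a in palmitate, 42 with C3a in vehicle and 837 with palmitate itself. For genes below 5 CPM the intervals were wider, and over all 15794 genes 83.6% lay within 1 unit.

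The 3 same-numbered pairs differed from each other across genes. Over the 10954 genes, the Pearson correlation of the log2 differences was -0.14 between pairs 1 and 2, -0.33 between pairs 1 and 3 and 0.13 between pairs 2 and 3. The Spearman correlations were -0.11, 0.02 and 0.13, so the value for pairs 1 and 3 was not seen in the ranks. These are descriptions across genes, which are not independent replicates, and pairs 2 and 3 share a sequencing batch. Of all genes tested, 1904 (12.1%) were higher with C3a in every palmitate pair and 2170 (13.7%) lower. Among the 10954 genes with at least 5 CPM, 1136 were higher in every palmitate pair and 1788 lower. Genes at this level were thus more often lower than higher with C3a in every pair, whatever their list. The groups did not overlap for 364 genes that were higher with C3a (2.30%) and for 249 that were lower (1.58%).

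The genes with the smallest p are given as values, since none passed the threshold. Sorbs3, which encodes the focal adhesion adaptor vinexin (chromosome 14, 70180468 to 70211989, GRCm38), was at 5.18, 6.32 and 6.13 CPM in palmitate and at 7.90, 7.96 and 8.01 CPM in palmitate with C3a. The groups did not overlap, and the log2 fold change was 0.44 ± 0.10 (SE, 95% interval 0.22 to 0.65; edgeR adjusted p = 0.998). Palmitate itself lowered Sorbs3, with a log2 change of -0.67 (edgeR adjusted p = 0.00041), so its level with C3a stood between those of palmitate and vehicle, although the palmitate libraries enter both values. Gprc5b, an orphan G protein-coupled receptor, was at 7.43, 7.18 and 7.37 CPM in palmitate and 9.08, 9.19 and 9.63 CPM with C3a, again without overlap (0.35 ± 0.09, SE). Its C3a value in vehicle was -0.09.

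Other genes higher with C3a in all 3 palmitate pairs had smaller or more variable differences. Mid1, a microtubule-bound ubiquitin ligase, was at 27.6, 24.9 and 16.6 CPM without C3a and at 33.2, 29.4 and 19.3 CPM with it, so the groups overlapped while every pair was higher with C3a (0.24 ± 0.05, SE). Gab1, a docking adaptor below receptor tyrosine kinases, was at 8.18, 7.94 and 6.64 CPM and then at 8.93, 10.9 and 10.1 CPM (0.41). Fam111a, a protease that restricts viral replication, was at 3.32, 3.00 and 4.64 CPM and then 4.36, 6.20 and 6.01 CPM (0.61). The receptor phosphatase Ptprs (0.25), the RNase P subunit Rpp14 (0.18) and the carnitine acetyltransferase Crat (0.20) completed the 8. Of these 8, 5 had groups that did not overlap, against 2.3% of all genes. They were chosen for a small p and 1 direction in 3 pairs, which favours groups without overlap.

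On the lower side, Vamp7, a SNARE protein of vesicle fusion, was at 61.5, 62.8 and 57.7 CPM in palmitate and at 53.3, 47.0 and 53.6 CPM with C3a, without overlap (-0.24 ± 0.06, SE). Pfkfb3, a regulatory enzyme of glycolysis (chromosome 2, 11471433 to 11554077, GRCm38), was at 39.0, 55.7 and 34.8 CPM and then at 27.3, 46.4 and 24.5 CPM. It was lower in every pair while the groups overlapped, and its log2 fold change was -0.42 ± 0.11 (SE, 95% interval -0.67 to -0.18). Its C3a value in vehicle was almost equal, at -0.43 ± 0.11. The redox-fold protein Sh3bgrl (-0.21), the histone gene regulator Npat (-0.19), the palmitoylated membrane protein Chic1 (-0.19), the splicing factor Prpf18 (-0.16) and the gamma-tubulin partner Mzt1 (-0.15) had values near 0 in vehicle, between -0.03 and 0.01. Dynlt1a, a dynein light chain with near-identical copies in the genome, was at -0.30 and is uncertain for that reason. Of these 8, 6 had groups that did not overlap, against 1.58% of all genes, and they were chosen in the same way.

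**Figure D2:**
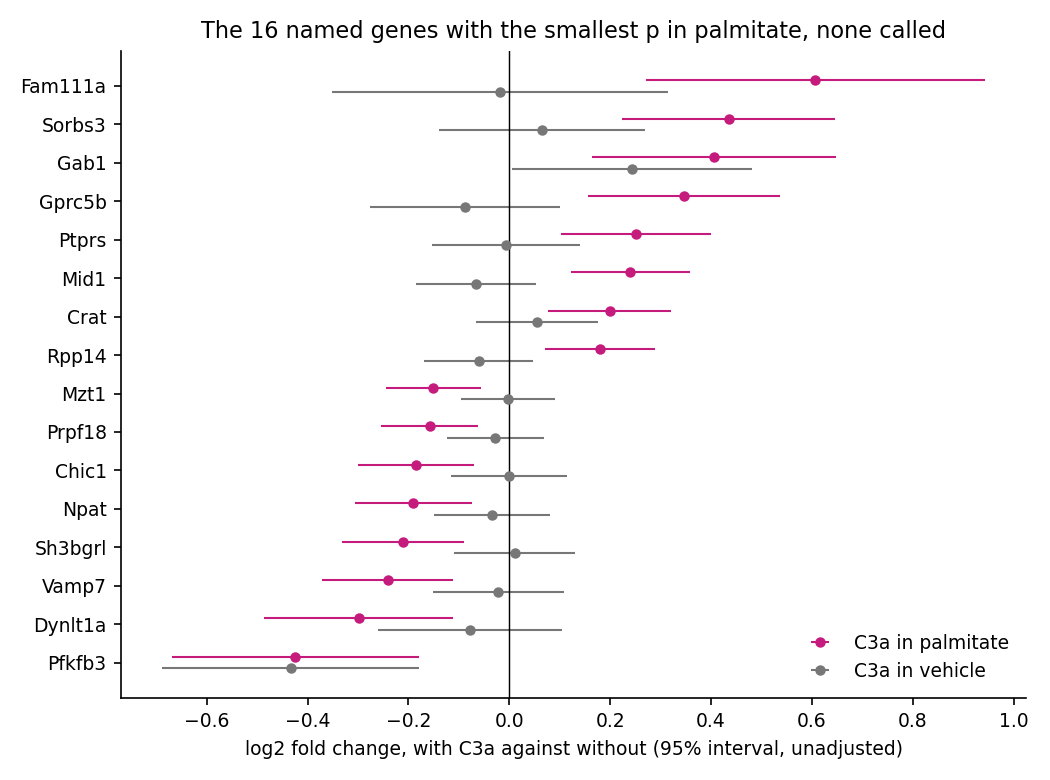
Log2 fold change with C3a against without (x axis) and its 95% interval for the 16 genes with the smallest p in palmitate that met the naming conditions, none of them called, in palmitate and in vehicle. Pfkfb3 lies at -0.42 and -0.43, while Sorbs3 lies at 0.44 in palmitate and 0.06 in vehicle; the genes were chosen on the palmitate values.

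The difference between the C3a effects in palmitate and in vehicle was tested for every gene and called for none. Genes with at least 5 CPM in the mean of 1 or more groups were ranked, with predicted genes and pseudogenes left out. Among them the 4 smallest p values with a higher C3a effect in palmitate belonged to Mid1, Spred3, Igfbp3 and Fyn. Spred3 is an ERK pathway inhibitor, Igfbp3 an insulin-like growth factor binding protein and Fyn a Src family kinase. Spred3 was at 22.2, 24.5 and 21.5 CPM in palmitate and 27.8, 25.4 and 23.2 CPM with C3a, and at 15.2, 15.4 and 13.6 CPM in vehicle and 11.8, 13.9 and 12.0 CPM with C3a. Each pair was thus higher with C3a in palmitate and lower in vehicle (interaction 0.38 ± 0.10, SE; edgeR adjusted p = 0.999). Those with a lower C3a effect in palmitate were DXBay18, the ubiquitin ligase Rnf8, the nuclear export factor Nxt2 and the mitochondrial transcription factor Tfam, with interactions from -0.73 to -0.19.

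Hypoxia and glycolysis genes were the list with the most uniform direction. These genes encode glucose transport and glycolytic enzymes, the oxygen sensors of the prolyl hydroxylase family and other targets of hypoxia-inducible factor, which binds short sites in promoters when oxygen is low. None of the 27 genes was called, but 26 had a log2 fold change below 0 with C3a in palmitate, with a median of -0.22 against 0.00 over all genes. In all 3 palmitate pairs 19 of the 27 (70.4%) were lower, against 13.7% of all genes tested. This list, like the others, was chosen with earlier results of these data known. Its genes are not independent replicates, so such shares are descriptions and not tests. Only Car9, a carbonic anhydrase, had a value above 0 (0.13 ± 0.72, SE).

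The sequence 250 bases upstream of the start of 3 members is shown because the list shares hypoxia-inducible factor as a known regulator. Capitals mark ACGTG or GCGTG on the strand of the gene, or CACGT or CACGC where the match is on the other strand; CACGTG holds overlapping matches on both strands. Sequences are from RefSeq on build GRCm38.p6, 5′ to 3′ on the strand of the gene, at chr7:110627407-110627656 (plus) for Adm, chr6:82774455-82774704 (minus) for Hk2 and chr2:11502091-11502340 (minus) for the second of the Pfkfb3 starts.
Adm: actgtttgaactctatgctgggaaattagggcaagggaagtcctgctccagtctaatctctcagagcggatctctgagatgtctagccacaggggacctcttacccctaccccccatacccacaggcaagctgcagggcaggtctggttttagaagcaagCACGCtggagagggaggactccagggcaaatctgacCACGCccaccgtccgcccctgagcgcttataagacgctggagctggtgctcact
Hk2: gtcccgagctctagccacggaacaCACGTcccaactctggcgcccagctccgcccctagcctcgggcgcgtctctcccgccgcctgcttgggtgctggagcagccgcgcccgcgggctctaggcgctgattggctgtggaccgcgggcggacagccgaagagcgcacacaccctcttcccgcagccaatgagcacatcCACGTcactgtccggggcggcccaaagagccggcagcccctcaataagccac
Pfkfb3: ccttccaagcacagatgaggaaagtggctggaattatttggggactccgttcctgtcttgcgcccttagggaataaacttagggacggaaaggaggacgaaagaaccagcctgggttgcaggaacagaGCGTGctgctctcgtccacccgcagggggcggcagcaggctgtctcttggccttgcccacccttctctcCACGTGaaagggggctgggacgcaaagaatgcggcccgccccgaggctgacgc
Of the 27 members, 25 had an entry in the promoter table, and all 25 held a match at 1 or more of their starts. The share was 58.7% among 11722 tested genes with an entry and 41.5% among all 27025 genes of that table, counted the same way. The list was made up of known targets of hypoxia-inducible factor, so a high share follows from its make-up and is no measure of a C3a effect. The other Pfkfb3 start held 1 match, and some members also had a start without a match. A match is a description of these letters and not a binding site.

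The members at the fore of the list were those with the smallest p. Egln1, the main oxygen-sensing prolyl hydroxylase, was at 78.4, 137 and 105 CPM in palmitate and at 63.4, 125 and 83.8 CPM with C3a, lower in every pair with overlapping groups (-0.25 ± 0.09, SE). Egln3, an inducible form, was at 4.15, 14.1 and 9.53 CPM and then 3.43, 10.6 and 5.17 CPM (-0.53 ± 0.26, SE). Hk2, a hexokinase, was at 3.95, 4.35 and 3.19 CPM and then 2.88, 2.76 and 2.95 CPM, without overlap (-0.40 ± 0.20, SE). Adm, which encodes the vasodilator adrenomedullin and was named after its values were seen, was at 3.32, 2.73 and 3.64 CPM in palmitate and at 2.40, 0.0574 and 0.0198 CPM with C3a. The libraries numbered 2 and 3 with C3a were near 0 and that numbered 1 was not (-2.49 ± 1.20, SE). Over all libraries Adm was not called (edgeR adjusted p = 0.998). It was called without the palmitate with C3a library numbered 1 (-6.50, edgeR adjusted p = 0.00318). Batch 2 alone leaves out that same library, and Adm was called there too (-6.38, edgeR adjusted p = 0.0105). That library was the 1 that lay apart from its group, so neither call is separate support.

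The size of the list's shift varied between pairs, and a shift in the same direction was seen in vehicle. The median log2 difference was -0.20, -0.09 and -0.45 in the palmitate pairs numbered 1, 2 and 3. In vehicle 25 of the 27 values were below 0 (median -0.34), 11 genes were lower in all 3 vehicle pairs, and 9 (33.3%) were lower in all 6 pairs, against 2.48% of all genes. The summed level of the list in palmitate was 8321, 11650 and 9109 CPM, and 7436, 11200 and 7056 CPM with C3a. In vehicle it was 4298, 8481 and 5591 CPM, and 4537, 5419 and 5357 CPM with C3a, so the vehicle library numbered 2 stood highest of its group, and in pair 1 the sum was higher with C3a. The vehicle pair medians were 0.00, -0.79 and -0.13, with 13 of 27 genes below 0 in pair 1. The vehicle median was -0.15 without the vehicle library numbered 2, -0.14 without the vehicle with C3a library numbered 2 and -0.05 with 19 of 27 below 0 without all libraries of that number. Palmitate raised 19 of the 27 genes in the same fit, against 15.2% of all genes. Without the palmitate with C3a library numbered 3, the median was -0.10 with 25 of 27 below 0, and over every other setting it ran from -0.33 to -0.12.

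**Figure D3:**
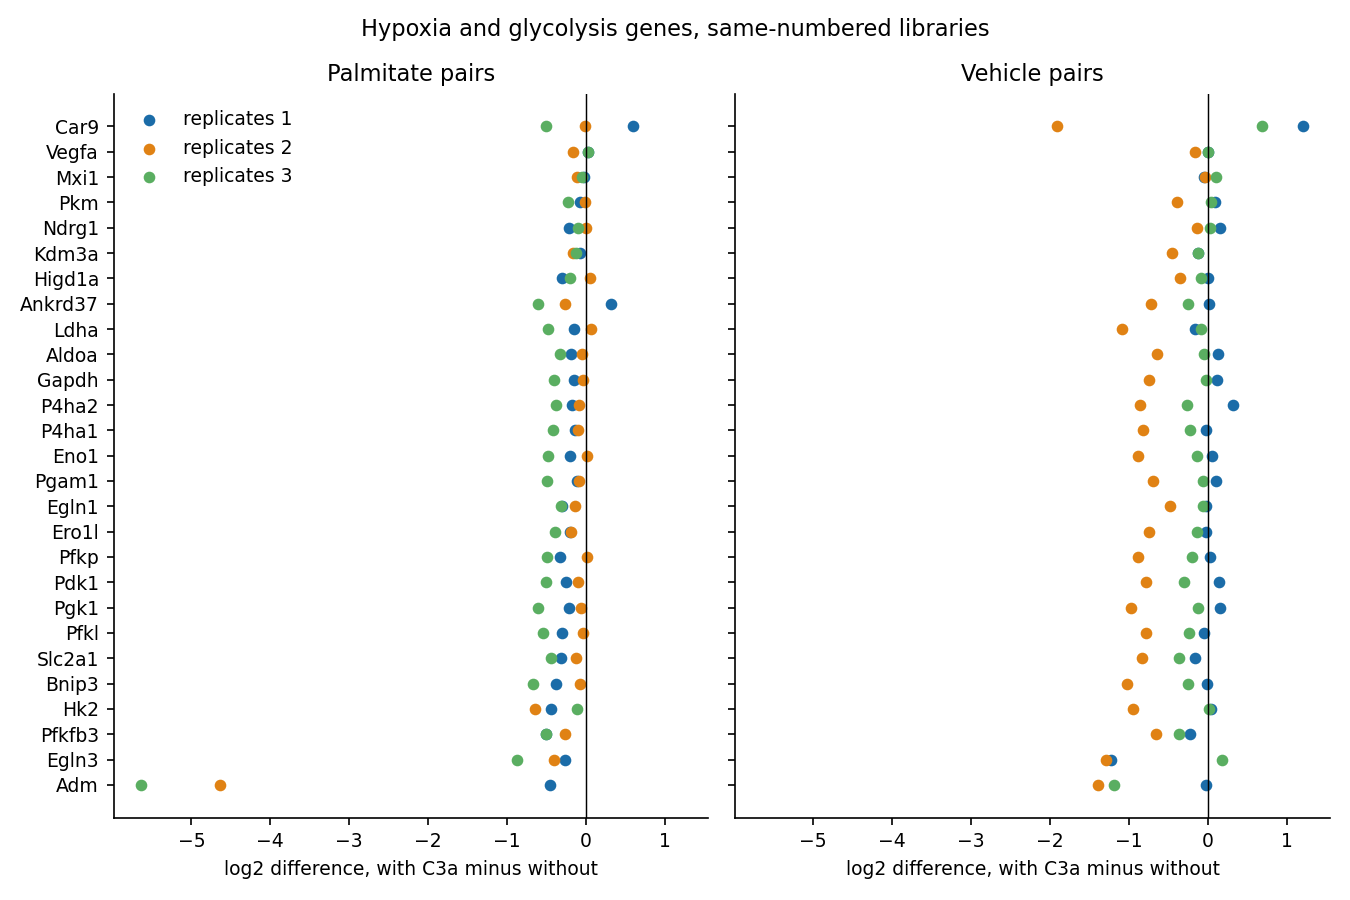
Log2 difference with C3a minus without (x axis) of each of the 27 hypoxia and glycolysis genes (y axis) in the 3 same-numbered palmitate pairs (left) and vehicle pairs (right). In palmitate 19 genes lie below 0 in all 3 pairs; in vehicle 11 do, and the pair numbered 2 lies lowest for most of them.

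Differences with C3a were small in the stress response that palmitate raised. The integrated stress response list holds the transcription factors and targets induced when translation initiation is curbed. Palmitate raised 31 of its 33 genes, against 15.2% of all genes, whereas C3a in palmitate called none, at a median of -0.01 (12 above 0, 21 below), and for all 33 the 95% interval excluded a 2-fold change. Ddit3, the proapoptotic factor CHOP, was at 107, 76.6 and 76.2 CPM in palmitate and at 110, 69.2 and 77.7 CPM with C3a (-0.03 ± 0.22, SE; 95% interval -0.55 to 0.49). Atf4, the central factor of the response, was at 452, 545 and 540 CPM and then 454, 524 and 510 CPM (-0.05 ± 0.06, SE). Both genes had overlapping groups, and palmitate had raised them by 1.19 and 0.70.

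For ER chaperones and genes of protein degradation at the endoplasmic reticulum, none of 30 was called with C3a in palmitate. Values below 0 were found for 23 of them, and the median was -0.04. A lower level in all 3 palmitate pairs was found for 12 (40.0%), against 13.7% of all genes. Among the 10954 genes with at least 5 CPM, 1788 were lower in all 3. The chaperone Hspa5 was at 2328, 2253 and 2290 CPM in palmitate and at 2245, 2199 and 2102 CPM with C3a, without overlap (-0.07 ± 0.04, SE). Its co-chaperone Dnajb9 was at 400, 541 and 502 CPM and then 393, 464 and 469 CPM (-0.12 ± 0.06, SE). Palmitate raised 18 of the 30 and lowered 2, against 15.2% and 14.0% of all genes. Without the palmitate library numbered 3 the list's median was -0.01.

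Cell death genes had no common direction. Of 32 proapoptotic genes 18 were above 0 (median 0.02) and of 17 antiapoptotic genes 7 were (median -0.05), with none called in either list. Bax, which opens the mitochondrial outer membrane, was at 54.1, 46.3 and 52.8 CPM in palmitate and 51.9, 48.6 and 48.9 CPM with C3a (-0.04 ± 0.06, SE). The survival genes Bcl2 and Bcl2l1 were at 0.10 ± 0.12 and -0.05 ± 0.05 (SE). Hrk, an activator of cell death, was at 0.474, 0.324 and 0.233 CPM in palmitate and at 1.44, 0.517 and 0.456 CPM with C3a, higher in every pair at very low counts (1.12 ± 0.51, SE). Its value in vehicle was 1.20 ± 0.55. Bnip3l, which marks mitochondria for removal, was at -0.15 ± 0.06 in palmitate and -0.16 ± 0.06 in vehicle.

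Beta cell genes differed little with C3a in palmitate. Of 34 identity genes, 15 were above 0 and none was called (median -0.01), while palmitate had lowered 19 of them, against 14.0% of all genes. Ins2 was at 87481, 86243 and 94851 CPM in palmitate and 82038, 85501 and 89639 CPM with C3a (-0.06 ± 0.10, SE). Pdx1, the pancreatic and beta cell homeobox factor, was at 174, 262 and 236 CPM and then 177, 248 and 247 CPM (0.00 ± 0.05, SE), and Nkx6-1 was at 0.09 ± 0.09. Mlxipl, the glucose-responsive factor ChREBP, was at 68.5, 86.3 and 82.0 CPM and then 79.8, 86.4 and 109 CPM (0.22 ± 0.09, SE), after a palmitate change of -1.19.

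Insulin granule and exocytosis genes had 24 of 27 values below 0, against 7880 of all 15794 genes. In all 3 pairs 11 (40.7%) were lower, against 13.7% of all genes and 1788 of the 10954 genes with at least 5 CPM. The median was only -0.04 and none was called. Syt4, a granule synaptotagmin, had the smallest p of the list, at 340, 446 and 367 CPM in palmitate and 326, 398 and 332 CPM with C3a (-0.12 ± 0.05, SE). The count below 0 was 17 to 25 over the alternatives. Genes that beta cells normally keep off, and genes of dedifferentiation, had 19 of 22 values above 0 (median 0.20). Of these 22, 9 were higher in all 3 pairs, against 12.1% of all genes. The sulfurtransferase Tst was at 1.50, 1.21 and 1.96 CPM and then 2.29, 2.01 and 2.36 CPM (0.52 ± 0.20, SE), without overlap. Mgst1, a glutathione transferase, was at 6.32, 6.21 and 5.34 CPM and then 7.75, 6.84 and 12.2 CPM, and Aldh1a3, a marker of failing beta cells, lay the other way at -0.48 ± 0.21. Without the palmitate with C3a library numbered 3, in which the connective tissue transcripts were high, the median of this list was 0.09 with 17 of 22 above 0, and it was 0.08 without the palmitate library numbered 2; the part of those cells in the result was not tested.

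The other islet hormones had overlapping groups. Gcg of alpha cells was at -0.06 ± 0.06, Sst of delta cells at -0.03 ± 0.06, Iapp at -0.07 ± 0.07 and Ppy at 0.01 ± 0.27 (SE). Fatty acid oxidation genes and PPAR targets, of which palmitate raised 23 of 34 against 15.2% of all genes, had a median of 0.01 with C3a. Cpt1a, the gate of fatty acid entry into mitochondria, was at 148, 175 and 159 CPM in palmitate and at 151, 178 and 152 CPM with C3a (0.00 ± 0.11, SE), beside a palmitate change of 1.86. Angptl4, a lipase inhibitor induced by fatty acids, was at 20.0, 13.0 and 14.2 CPM and then 16.3, 14.2 and 19.5 CPM (0.09 ± 0.24, SE), beside a palmitate change of 3.37.

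The receptor and its signalling genes were present and differed little. C3ar1 (chromosome 6, 122847138 to 122856161, GRCm38) was at 12.3, 9.26 and 10.1 CPM in palmitate and at 8.93, 10.5 and 14.4 CPM with C3a. The groups overlapped and the pairs differed in direction (0.12 ± 0.16, SE; 95% interval -0.24 to 0.48). The highest level was in the palmitate with C3a library numbered 3, which was high in macrophage markers, and without that library the value was -0.12 ± 0.13 (SE). Over 27 genes of C3a receptor signalling the median was 0.03, with 16 above 0 and none called. C5ar1, the receptor of the related peptide C5a, was at 3.40, 3.37 and 2.96 CPM and then 3.84, 3.50 and 6.14 CPM, higher in every pair and highest in the library that was rich in macrophage markers (0.46 ± 0.19, SE). Without that library its value was 0.18 ± 0.17, and in vehicle it was -0.38 ± 0.19.

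Dusp26 (chromosome 8, 31089471 to 31097047, GRCm38) did not differ beyond the spread of the libraries. It was at 16.2, 15.0 and 13.2 CPM in palmitate and at 15.7, 15.4 and 13.1 CPM with C3a, with overlapping groups and a log2 fold change of -0.01 ± 0.08 (SE; 95% interval -0.17 to 0.16). In vehicle the C3a value was -0.06 ± 0.07, and palmitate lowered the gene, with a log2 change of -0.39 (edgeR adjusted p = 0.0026). Among the 20 dual-specificity phosphatases tested none was called, and Dusp10, which acts on stress kinases, had the smallest p, at 41.5, 61.6 and 54.0 CPM and then 38.7, 55.1 and 49.1 CPM (-0.14 ± 0.05, SE). ERK pathway targets (18 genes, median -0.03) and immediate early and cAMP-responsive genes (24, median -0.03) had none called. Nr4a3, a nuclear receptor of the immediate early class, was lower with C3a in each palmitate pair, at 1.78, 1.81 and 1.40 CPM against 0.886, 1.29 and 0.813 CPM, without overlap (-0.75 ± 0.27, SE), and in vehicle its value was 0.48 ± 0.30.

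**Figure D4:**
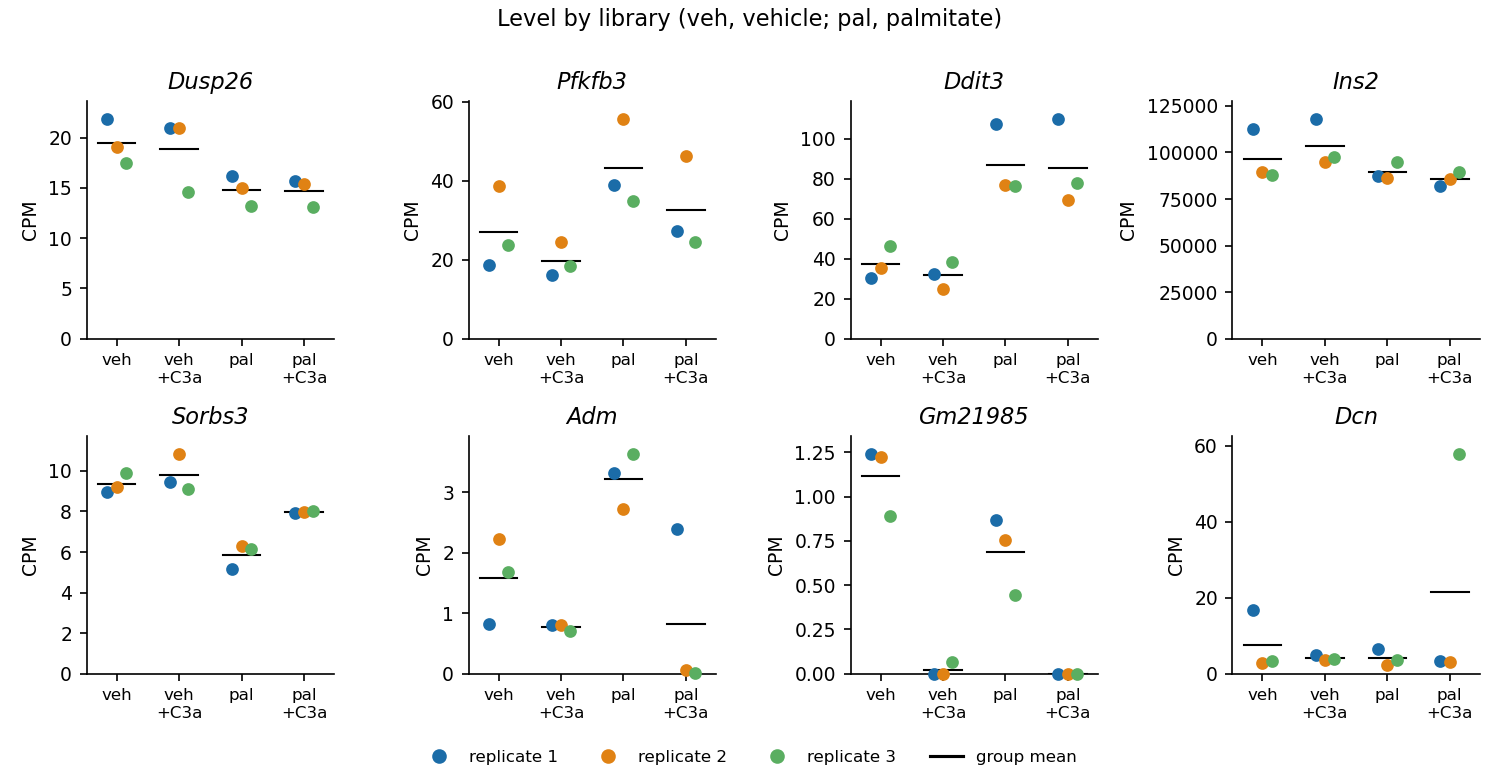
Level in CPM (y axis, from 0) of 8 genes in each of the 12 libraries, by group (x axis) and replicate number (colour), with the group mean as a line. Dusp26, Ddit3 and Ins2 overlap between palmitate and palmitate with C3a, Sorbs3 does not, Gm21985 is at 0 in the 3 palmitate with C3a libraries, and the mean of Dcn in that group rests on replicate 3.

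Of 23 complement genes, 16 had their highest level among the 6 palmitate libraries in the palmitate with C3a library numbered 3, and 12 their highest level of all 12 libraries. C3 itself was at 19.1, 18.5 and 16.4 CPM in palmitate and at 17.3, 20.2 and 70.4 CPM with C3a (0.95 ± 0.67, SE), so only that library was apart, and without it the value was -0.09 ± 0.41. C1s1, a protease of the classical pathway, reached 14.5 CPM and C4b 20.4 CPM there, from at most 1.54 and 6.57 CPM in the 3 palmitate libraries. Without that library their log2 fold changes went from 2.17 to -0.15 and from 0.73 to -0.02. Over 23 complement genes the median was 0.13, and it was -0.02 without that library. The fibroblast and pericyte list had pair medians of -1.57, 0.43 and 1.82, a fitted median of 0.52 with 14 of 15 above 0, and -0.48 with 4 of 15 above 0 without that library. The latter fit kept the palmitate library numbered 1, which had the highest sum of this list in its group. For complement genes the part of connective tissue cells in the result was not tested.

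Inflammatory genes of the NF-kB list had 20 of 26 values above 0 and a median of 0.14, with none called. Tnf, the cytokine, was at 0.909, 0.486 and 0.793 CPM in palmitate and at 1.22, 1.21 and 1.61 CPM with C3a, higher in every pair without overlap at a low level (0.91 ± 0.34, SE). The pair medians of the list were -0.03, 0.21 and 0.15. Its fitted median was 0.42 without the palmitate with C3a library numbered 1, 0.22 without the palmitate library numbered 3, 0.11 without the palmitate with C3a library numbered 3 and 0.07 without all libraries numbered 2. Proliferation genes had 20 of 25 above 0 (median 0.13), but the median was -0.04 without the palmitate with C3a library numbered 2. The replication helicase subunit Mcm7 was at 15.8, 11.3 and 11.9 CPM and then 17.8, 13.1 and 14.5 CPM (0.22 ± 0.07, SE), higher in each pair. Mki67, the proliferation marker, was at 5.14, 3.08 and 3.38 CPM and then 5.43, 8.47 and 2.62 CPM, with the pair numbered 2 apart.

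**Figure D5:**
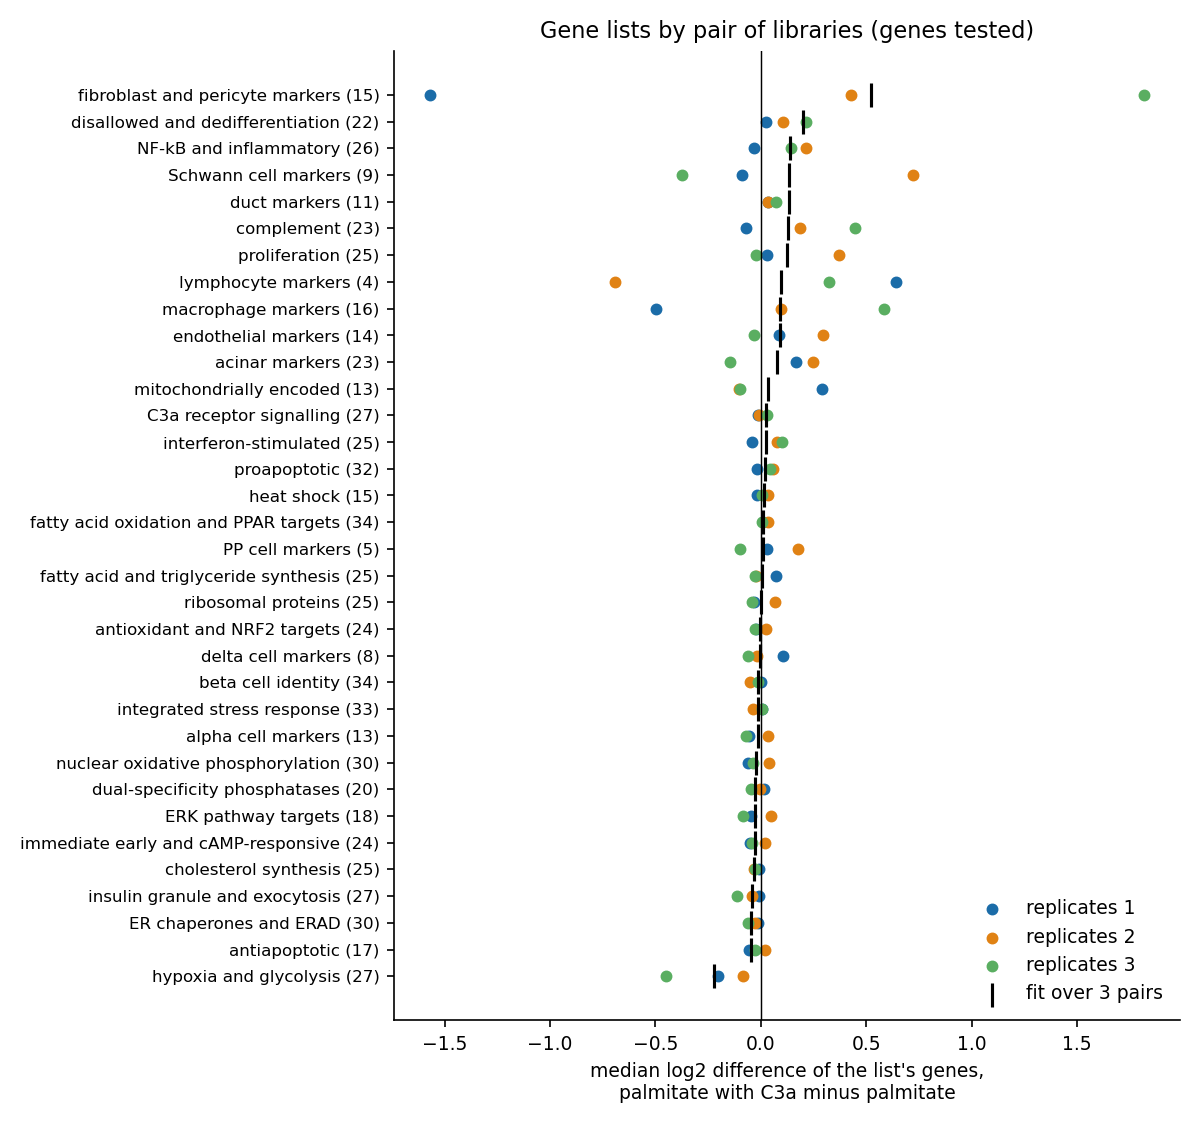
Median log2 difference of each gene list (y axis, genes tested in brackets), palmitate with C3a minus palmitate (x axis), by pair of libraries (points, from log2 CPM with a prior count) and from the fit over the 3 pairs (bars). The hypoxia and glycolysis list lies below 0 in each pair (-0.20, -0.09 and -0.45), and the fibroblast and pericyte list spans -1.57 to 1.82.

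The predicted gene Gm21985, named after its values were seen, had the smallest p of the table. Of its 4532 exonic bases in the annotation, 6.73% lie outside the exons of other genes on the same strand. Genes on the other strand were not looked at. It had 22, 28 and 19 counts in palmitate and 0, 0 and 0 in palmitate with C3a. With a floor of 3 counts put in place of 0 over the group, it was 24.0-fold lower with C3a. A counting interval, from the counts pooled over the 3 libraries of each group, had a lower bound of 19.0. In vehicle the gene had 30, 60 and 38 counts and then 0, 0 and 3, a ratio of 40.9 with a counting interval of 13.7 to 201.1. These intervals treat estimated counts as separate reads and leave out the spread between libraries, so they are not intervals of the C3a effect. No other gene of the table had at least 10 counts in all 6 libraries without C3a and at most 3 in all 6 with it, and no gene had the reverse. The unadjusted edgeR p was 5.96e-05 in palmitate and 5.41e-05 in vehicle, and the adjusted p in palmitate was 0.941 by edgeR, 0.00165 by DESeq2 and 0.0467 by limma-voom.

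Counts of a transcript that shares most of its bases with another are estimates of how reads divide between them, so the value of Gm21985 is uncertain. Among single transcripts with at least 10 counts in all 3 libraries of a palmitate group and 0 in the other, 25 were absent with C3a and 38 were absent without it.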

How the data were processed

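The files hold estimated counts for each mouse transcript, which the authors deposited as whole numbers. Per the submitters' processing notes kallisto, DESeq2 and GRCm38 were used, without versions or roles, and the labels' protocols name a strand-marking messenger RNA kit. How strand was treated in counting is not stated there, so overlapping genes and near-identical copies are uncertain.

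By identifier, 69942 of 71524 transcripts had a GENCODE M21 gene, which gave 22141 genes. The other 1582 transcripts held 0.581% to 0.677% of a library's counts and were tested apart. In a chi-squared test of each of 66 library pairs the statistic was at least 7.35 times its degrees of freedom, so none was a repeat. Genes kept by filterByExpr (15794) were scaled by TMM. The test was edgeR's robust quasi-likelihood test (version 4.0.16, R 4.3.3) with group and replicate number as terms, over all 12 libraries (6 residual degrees of freedom, common biological coefficient of variation 9.55%). Calls used a Benjamini-Hochberg adjusted p under 0.05, two-sided. Standard errors were taken as the size of the log2 fold change over the root of the F statistic. Differences within a pair are of log2 CPM with a prior count of 2. The fit was also run on simulated counts with known changes, with the same spread for all genes and no replicate, batch or palmitate effect. These settings differ from the data, so that run is no measure of the results reported here.

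Numbers pair the libraries: the labels give each number a shared batch or date tag, and libraries of 1 number deviated together from their group means (18 correlations, lowest 0.578, mean 0.746; in numbers 2 and 3 alone, 6, lowest 0.194).

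Named genes were, as none was called, the 8 smallest p in each direction with at least 5 CPM and 1 direction in 3 pairs, 4 per direction for the interaction, up to 4 per list, and C3ar1, C3, Dusp26, the hormones and a set of beta cell, stress, lipid and death genes. Predicted genes were counted and not named unless a count was 5 or fewer. Not every gene so chosen is reported here. The members, the 34 lists and the rule were chosen with earlier results of these data known. Alternatives covered the terms, samples, scaling, filter, limma 3.58.1, DESeq2 1.42.0 and each library left out. Transcripts tested singly, and the lists under each alternative, were added after seeing the data.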

Additional observations from a re-analysis of the deposited data

How the results depend on the processing

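The count of genes called for C3a in palmitate was 0 under 7 alternatives that kept all palmitate libraries and was 1 with DESeq2, with limma-voom (Gm21985 in both) and in batch 2 alone (Adm). With each library or number left out it ran from 0 to 1. The call was Adm without the palmitate with C3a library numbered 1 and without all libraries numbered 1. The latter is the same fit as batch 2 alone. For C3a in vehicle the counts were 5 with DESeq2, 6 in batch 2 alone, 2 without the filter and 1 with a mean of at least 1 CPM, and 0 to 6 with a library or number left out (6 without all libraries numbered 1, 3 without the vehicle library numbered 1, and 1 each without the vehicle with C3a library numbered 1 and the palmitate with C3a library numbered 3). For the interaction they were 1 in batch 2 alone (Pgk1-rs7, a near-identical copy of Pgk1) and 0 to 3 with libraries left out (3 without the vehicle library numbered 1). Without the replicate block the counts were 0 in all 3 comparisons, with 430 genes at an unadjusted p under 0.05 for C3a in palmitate with batch as a term and 163 with neither, against 568 with the pairing. The transcripts tested singly (42359) and the unmatched ones (822) gave 0 calls.

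Of 178 named genes, 132 kept their sign in every alternative. Depth limits the low genes most: the median width of the 95% interval of the log2 fold change for C3a in palmitate was 1.52 in the 4840 genes with a mean below 5 CPM and 0.28 in the other 10954.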

Other observations

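Cholesterol synthesis genes held 2 of the smaller p values in palmitate, neither past the threshold. Pmvk, an early enzyme of the pathway, was at 34.9, 38.4 and 43.0 CPM in palmitate and 28.9, 36.7 and 37.9 CPM with C3a, lower in each pair with overlapping groups (-0.17 ± 0.05, SE), and at -0.17 ± 0.05 in vehicle. Stard4, a sterol carrier, was at 40.2, 37.7 and 29.3 CPM and then 37.4, 30.0 and 26.1 CPM (-0.20 ± 0.06, SE). Over the 25 genes of the list the median was -0.03, with 11 above 0. Palmitate raised 6 of them and lowered 4, against 15.2% and 14.0% of all genes.

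Endothelial markers had 12 of 14 values above 0 with C3a in palmitate (median 0.09), after palmitate had lowered 9 of the 14, against 14.0% of all genes. Emcn, a vessel surface sialomucin, was at 4.86, 5.37 and 7.83 CPM and then 5.21, 8.85 and 10.1 CPM (0.42 ± 0.18, SE). Without the palmitate with C3a library numbered 2 the list's median was -0.04. Acinar markers had 20 of 23 values above 0 (median 0.08), and the median was -0.13 without the palmitate library numbered 2, -0.03 without the palmitate with C3a library numbered 1 and 0.29 without the palmitate library numbered 3. Their summed level was 5832, 4150 and 4709 CPM in palmitate and 6854, 4928 and 4313 CPM with C3a.

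Averaged over palmitate and vehicle, the C3a contrast called 0 of 15794 genes with edgeR (766 at an unadjusted p under 0.05), and Gm21985 had the smallest adjusted p, 0.0543.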
